A study of Mus musculus with 282 samples.

Results

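The genes described here make, load and break down the monoamine transmitters of the mouse hypothalamus. They were chosen by name as the rows of the deposited expression table that the deposited transcript assembly calls Th, Ddc, Hdc, Slc18a2, Gch1, Maoa or Maob. All 7 names were present, as 7 of 14079 genes and 23 of 51024 transcripts. Every library came from the hypothalamus of a male mouse on a high fat diet, and no other diet or sex was among the samples. The mice belonged to 99 strains of the Hybrid Mouse Diversity Panel, a collection of classical inbred strains and of recombinant inbred strains, which are inbred descendants of crosses between classical strains. They comprised 18 strains of the AXB/BXA set (A/J with C57BL/6J), 43 of the BXD set (DBA/2J with C57BL/6J), 6 of the BXH set (C3H/HeJ with C57BL/6J), 7 of the CXB set (a BALB/c strain with C57BL/6J) and 25 classical inbred strains.

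Monoamine neurons share a small set of enzymes. Th, tyrosine hydroxylase, catalyses the rate-limiting step of dopamine and noradrenaline synthesis and needs tetrahydrobiopterin, a cofactor whose synthesis begins with Gch1, GTP cyclohydrolase. Ddc, aromatic amino acid decarboxylase, completes the synthesis of dopamine and of serotonin. Hdc, histidine decarboxylase, makes histamine, and in the brain its neurons lie in the tuberomammillary nucleus of the posterior hypothalamus. Slc18a2, the vesicular monoamine transporter, loads all of these amines into vesicles. Maoa and Maob, the monoamine oxidases of the mitochondrial outer membrane, degrade dopamine, noradrenaline and serotonin. Dopamine neurons of the arcuate nucleus are known for holding back prolactin release from the pituitary.

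Some libraries stood apart. Of 282 libraries, a pair from strain CXB-6/ByJ held the same profile apart from a constant factor of 0.995, with an SD of the log2 ratio of 2.72e-06 over 10741 genes, against at least 0.187 in 266 other pairs of mice of 1 strain. The pair differed by less than sampling noise and was counted as 1 sample, its mean. For 1 other mouse the labels name different strains, and it was kept for levels over all mice and left out of every comparison between strains, so that 280 mice entered those. In 18 libraries, called isoform-poor here, between 50.3% and 55.2% of the 21234 unannotated isoforms of known genes were listed at 0, against a median of 9.92% in the other 263. They were all the mice of 6 strains (BXD62, BXD70, BXD75, BXD85, BXD-9/TyJ and BXHA1) and 1 mouse of BXD87, so for these 6 strains library and strain cannot be told apart. A BXD-12/TyJ library had the largest summed gene FPKM, 792801 against a median of 337533. Of 7 listed hypothalamus genes 6 were in the table, and Sim1 was not. Pmch, the melanin-concentrating hormone precursor of the lateral hypothalamus, was at 264 FPKM or more in each mouse. Hcrt, the orexin precursor, was at 44.6 FPKM or more. The lowest values over mice were 3.55 FPKM for Nkx2-1, 1.45 FPKM for Pomc and 0.529 FPKM for Nr5a1. For Agrp, whose locus is merged with that of Atp6v0d1, the lowest value was 102 FPKM. Genes of neighbouring tissue varied widely between mice, with sums from 14.7 to 367 FPKM over 4 thalamus genes, from 7.25 to 2101 FPKM over 5 choroid plexus genes and from 0.589 to 16462 FPKM over 6 anterior pituitary genes.

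The 7 genes spanned a range from Maob, the highest, to Gch1, near the limit of 1 FPKM. The unit FPKM, fragments per kilobase of transcript and scaled to the mapped fragments of the library, is per length, so levels can be set side by side between genes. Over all mice Maob stood at 26.1 ± 3.82 FPKM (mean ± SD), Ddc at 21.3 ± 6.16 FPKM and Th at 18.8 ± 7.30 FPKM. Below these came Maoa at 13.9 ± 1.13 FPKM, Hdc at 11.2 ± 2.48 FPKM, Slc18a2 at 8.44 ± 3.07 FPKM and Gch1 at 1.29 ± 0.365 FPKM. The median gene of the table had a mean of 9.44 FPKM. Neighbours in this order overlapped in their ranges over mice, and within a mouse their order was fixed only at the lower end. Maob exceeded Ddc in 77.6% of mice, Ddc exceeded Th in 81.1%, Th exceeded Maoa in 74.4%, Maoa exceeded Hdc in 84.7% and Hdc exceeded Slc18a2 in 82.6%, whereas Slc18a2 exceeded Gch1 in each mouse.

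The genes of dopamine synthesis and storage varied most between mice and the oxidases least. The coefficient of variation was 38.7% for Th, 36.4% for Slc18a2, 28.9% for Ddc and 28.3% for Gch1. It was 22.3% for Hdc, 14.7% for Maob and 8.17% for Maoa, against a median of 17.3% over all genes. Th ranged from 8.60 to 52.6 FPKM with a median of 16.7 FPKM, and its highest mouse belonged to the BXHB2 strain. Maoa ranged only from 11.5 to 18.6 FPKM with a median of 13.8 FPKM.

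Of the 7 genes, 6 differed between the 99 strains and 1, Gch1, did not pass the test. The moderated F test of limma on log2(FPKM + 1), adjusted over all genes, called Maob (adjusted p = 1.03e-10), Hdc (1.59e-07), Ddc (1.85e-05), Slc18a2 (4.73e-05), Maoa (0.00327) and Th (0.00897). This is near the background, since 74.9% of all 14079 genes were called in the same test. Gch1 missed the threshold of 0.05 with an adjusted p of 0.0512, and passed it without the isoform-poor libraries (0.0249) and with the BXD-12/TyJ library left out (0.0425). Without the isoform-poor libraries the other 6 genes remained called, beside 70.4% of all genes. The calls of Th and Maoa were the least firm. When 1 mouse of each strain was left out in turn, the adjusted p of Th rose as far as 0.178 and that of Maoa as far as 0.421, and the Kruskal-Wallis test gave 0.0532 for Th.

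The share of variance on the log2(FPKM + 1) scale that lay between strains, an intraclass correlation, was highest for Maob at 0.426 and next for Hdc at 0.343. Ddc followed at 0.276 and Slc18a2 at 0.261. The shares of Maoa (0.196), Th (0.156) and Gch1 (0.109) lay below the median of 0.221 over all genes. Most of the spread of Th therefore lay between mice of the same strain, whose residual SD was 0.43 on the log2 scale, against 0.10 for Maoa and 0.16 for Maob. In bulk tissue, fewer cells of a type and less RNA per cell cannot be told apart.

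**Figure D1:**
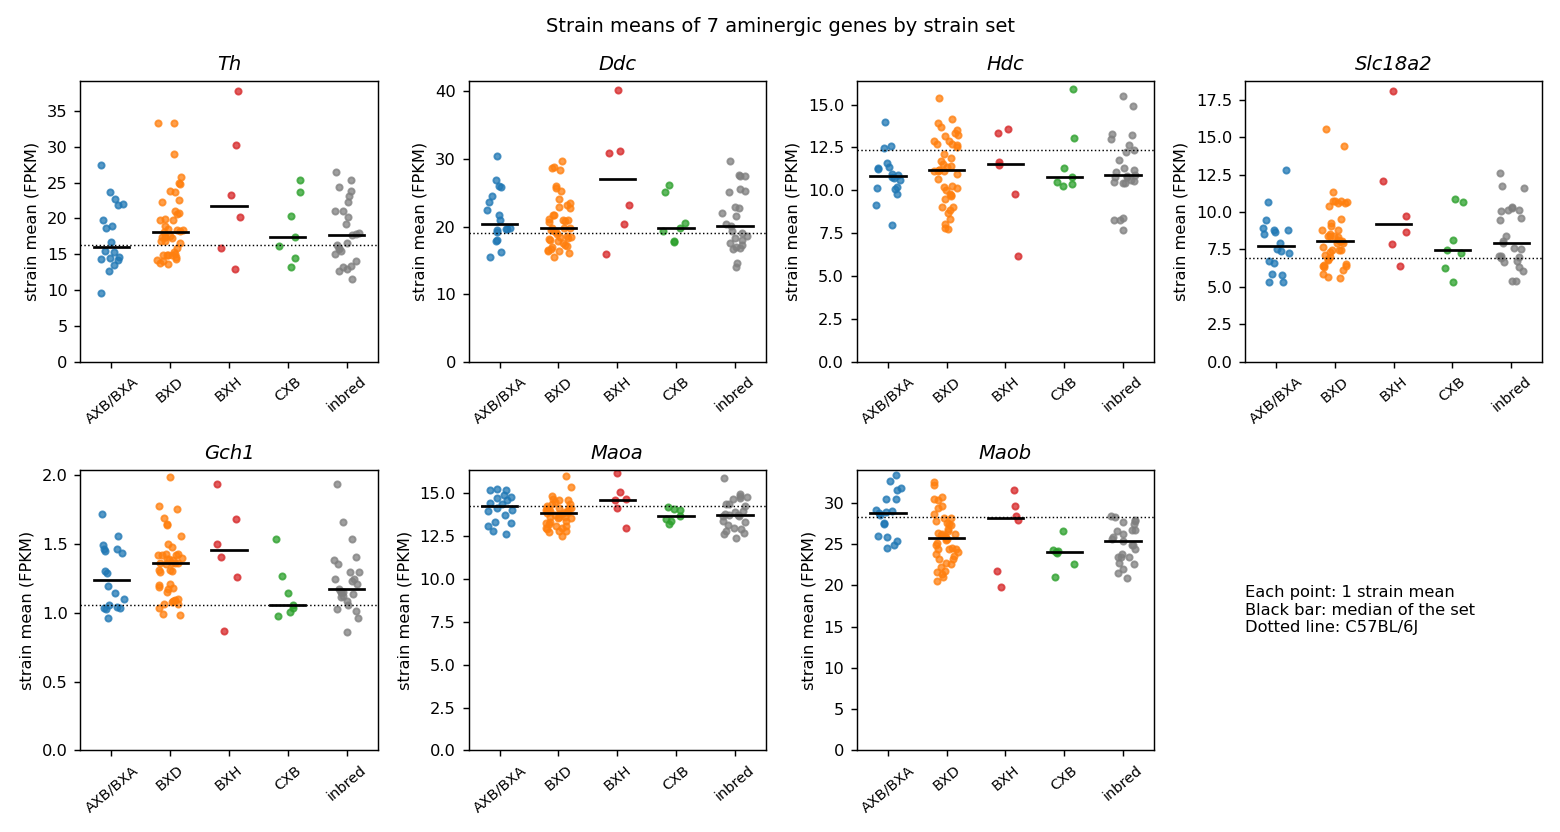
Strain means of the 7 genes in FPKM (vertical axis, from 0) by strain set (horizontal axis), with 1 point per strain, a black bar at the median of each set and a dotted line at C57BL/6J. The highest Th, Ddc and Slc18a2 means, 37.8, 40.2 and 18.1 FPKM, belonged to 1 BXH strain, and the Maoa means stayed between 12.3 and 16.1 FPKM.

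Th, Ddc and Slc18a2 had their highest strain mean in the same strain, BXHB2. Its 3 mice had 52.6, 27.8 and 32.9 FPKM of Th, a mean of 37.8 ± 13.1 FPKM (SD, n = 3). For Ddc they had 49.2, 31.5 and 39.9 FPKM, and for Slc18a2 25.7, 10.9 and 17.7 FPKM. The 3 mice of C57BL/6J had 19.5, 13.2 and 16.0 FPKM of Th. Next for Th came BXD-40/TyJ with 21.6, 42.8 and 35.7 FPKM and BXD-34/TyJ with 38.1 and 28.5 FPKM in its 2 mice. These same strains were also the next in order for Slc18a2, at means of 14.4 and 15.5 FPKM, whereas for Ddc the next were BXH-4/TyJ at 31.2 FPKM and BXH-6/TyJ at 30.9 FPKM. At the lower end, DBA/2J had 12.0, 11.6 and 11.0 FPKM of Th, a narrow range, and only AXB-12/PgnJ, a strain with 1 mouse, was lower at 9.53 FPKM. The highest strain mean was 3.96 times the lowest for Th, 3.41 times for Slc18a2 and 2.88 times for Ddc.

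Gch1 was highest in BXD-40/TyJ (1.57, 2.09 and 2.28 FPKM), followed by BXHB2 (2.37, 1.34 and 2.09 FPKM) and SM/J (1.93, 2.69 and 1.17 FPKM). Its lowest strain mean was 0.857 FPKM in SEA/GnJ. Mice of 1 strain thus spread over much of the range of the strain means, from 0.857 to 1.98 FPKM.

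Hdc followed another order of strains. It was lowest in BXH-4/TyJ, with 4.80, 4.98 and 8.67 FPKM, and next lowest in the founder of that cross, C3H/HeJ, with 6.49, 8.98 and 7.54 FPKM. The 3 mice of C57BL/6J had 12.0, 10.5 and 14.5 FPKM of Hdc. Next from the bottom came BXD-9/TyJ at 7.72 FPKM, which held 3 isoform-poor libraries. The highest means were those of CXB-12/HiAJ (19.8, 14.3 and 13.5 FPKM), SM/J (17.2, 15.3 and 13.9 FPKM) and BXD55 (16.6, 18.0 and 11.5 FPKM). BXH-4/TyJ, lowest for Hdc, ranked 4 of 99 for Th, at 30.2 FPKM.

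The oxidases moved over a narrower range. Maob was highest in BXA-12/PgnJ, with 37.9 and 28.8 FPKM in 2 mice, in BXA-7/PgnJ, with 30.5, 32.4 and 35.2 FPKM, and in BXD79, with 33.4, 34.1 and 30.0 FPKM. It was lowest in BXHB2, the strain highest for Th, with 19.3, 15.4 and 24.7 FPKM, so the highest strain mean was 1.69 times the lowest. For Maoa that ratio was 1.31. The 2 strains with the highest Maoa, BXHA1 at 16.1 FPKM and BXD85 at 16.0 FPKM, consisted of isoform-poor libraries, and the part of this in their level was not tested. Next came SM/J, which held none of these libraries, and whose mice had 15.7, 15.9 and 16.0 FPKM. LG/J was lowest for Maoa with 12.4, 11.6 and 13.0 FPKM.

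The same test was made among the strains of each set, which differ in number, and the sets were not tested against each other. Among the 6 BXH strains 5 of the 7 genes differed, namely Hdc (adjusted p = 4.54e-05, limma F test within the set), Maob (6.03e-05), Ddc (0.00108), Slc18a2 (0.0134) and Th (0.023), where 18.4% of all genes were called. Among the 43 BXD strains 4 genes were called, Maob (5.84e-07), Hdc (1.45e-05), Slc18a2 (0.00388) and Ddc (0.0368), beside 64.0% of all genes. The 25 inbred strains differed in Hdc (0.0011), Ddc (0.00172), Maoa (0.00997), Slc18a2 (0.0207) and Maob (0.0372), beside 47.4% of all genes. No gene of the 7 passed in the AXB/BXA set, where 22.1% of all genes did, or in the CXB set, where 16.4% did. The smallest adjusted p there was 0.147 for Maob in the AXB/BXA set and 0.11 for Slc18a2 in the CXB set. Fitted on the AXB/BXA strains alone, Maob was called in that set (0.00453), and fitted alone the BXH set lost Slc18a2 (0.117) and the BXD set lost Ddc (0.157). Without the isoform-poor libraries the calls in each set stayed on the same side of the threshold, beside 21.9% of all genes in the AXB/BXA set, 55.8% in the BXD set, 12.2% in the BXH set, 15.8% in the CXB set and 47.1% in the inbred strains, and Th in the BXD set came to 0.0519. Of the 14 calls 3 held each time when 1 mouse of each strain was left out in turn, and fewer mice enter these fits. In the BXH set Hdc kept its call each time (at most 0.0313), whereas Th lost it each time (0.0665 to 0.269), Slc18a2 in 2 of 3 (up to 0.225) and Maob (0.109) and Ddc (0.0901) in 1. In the BXD set Hdc and Maob kept theirs each time, Slc18a2 lost it once (0.0897) and Ddc each time (0.0745 to 0.134), while Maoa gained one (0.0184). In the inbred strains each of the 5 genes lost its call at least once, Maob each time (0.0532 to 0.515), and in the CXB set Slc18a2 (0.0443) and Hdc (0.0447) each gained a call once.

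**Figure D2:**
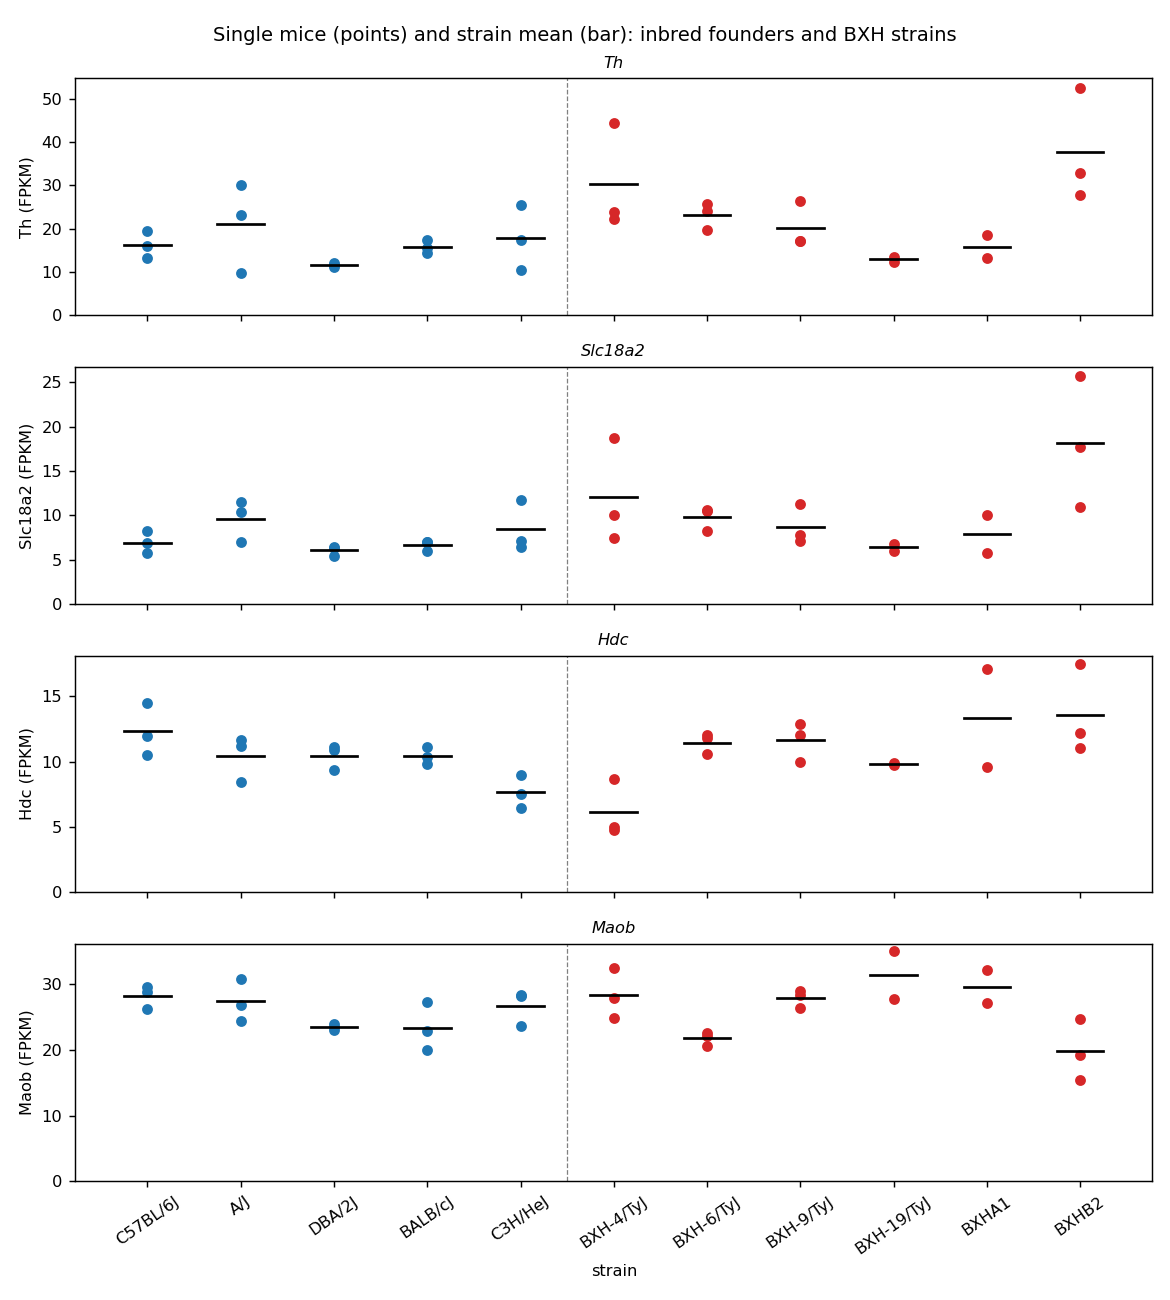
Th, Slc18a2, Hdc and Maob in FPKM (vertical axes, from 0) in the founder strains (blue) and the BXH strains (red), with 1 point per mouse and a bar at the strain mean. BXHB2 stands highest for Th and Slc18a2 and lowest for Maob, while C3H/HeJ and BXH-4/TyJ stand lowest for Hdc.

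Set against C57BL/6J, the founder strains differed in 1 of 28 contrasts of the 7 genes. BALB/cJ, a close relative of the BALB/c parent of the CXB set, is counted among the founders here. Hdc was 7.67 ± 1.25 FPKM (SD, n = 3) in C3H/HeJ and 12.3 ± 2.03 FPKM (n = 3) in C57BL/6J. The log2 difference was -0.62 with an SE of 0.19 (limma, adjusted p = 0.0263). In this contrast 7.56% of all genes were called, 3.69% in the lower direction. The call rested on the spread taken from all strains, since the fit of these 2 strains alone gave an adjusted p of 0.0707, and leaving out from each strain the mouse numbered here 1 or 3 (in order of deposit, since the labels give no number) gave 0.258 or 0.227. Hdc in A/J, DBA/2J and BALB/cJ lay between 10.4 and 10.5 FPKM, and none of these contrasts passed. In DBA/2J the log2 differences of Th, Ddc and Maob were -0.44, -0.35 and -0.25. With adjusted p of 0.564, 0.512 and 0.284 (limma) these were not called, where 6.85% of all genes were. For Th in DBA/2J the 95% interval of the difference ran from -1.13 to 0.25. Maoa in A/J had a log2 difference of -0.09 and was not called (limma, adjusted p = 0.601). In A/J 7.98% of all genes and in BALB/cJ 6.75% of all genes were called, and none of the 7 was. All 4 contrasts share the same 3 C57BL/6J mice.

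Th, Ddc, Slc18a2 and Gch1 rose and fell together over the strains. Over 99 strain means of log2(FPKM + 1), Pearson's r was 0.87 for Th with Ddc, 0.85 for Th with Slc18a2 and 0.79 for Ddc with Slc18a2. With Gch1 it was 0.71 for Th, 0.65 for Slc18a2 and 0.60 for Ddc. Each of these 6 pairs had an adjusted p of 3.5e-05 over 21 pairs (permutation test with 100000 resamples, 2-sided, where the unadjusted p of 1e-05 is the smallest they can give), and Spearman's rho ran from 0.52 for Ddc with Gch1 to 0.86 for Th with Ddc. With the 2 most extreme strains for the gene named first removed, r stayed between 0.55 and 0.85. Strains of 1 set share founders and are not fully independent, so the same pairs were taken within sets. There r for Th with Ddc was 0.89 in the AXB/BXA set, 0.90 in the BXD set, 0.92 in the BXH set, 0.97 in the CXB set and 0.87 in the inbred strains. By Pearson's r all 6 pairs passed within the BXD, BXH and inbred strains. In the AXB/BXA set 5 passed, where Ddc with Gch1 had r = 0.42, and in the 7 CXB strains 1 did. The permutation tests were exact for the BXH and CXB strains. Of all 21 pairs of members, 6 passed by Pearson's r in the 6 BXH strains and 3 by Spearman's rho. The relation was not only one between strains. Over deviations of single mice from their strain mean, r was 0.87 for Th with Ddc, 0.80 for Th with Slc18a2 and 0.70 for Th with Gch1. Of the 28 mice highest for Th, 22 were among the 28 highest for Slc18a2, 18 for Ddc and 15 for Gch1, but 6 for Hdc and 0 for Maob.

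**Figure D3:**
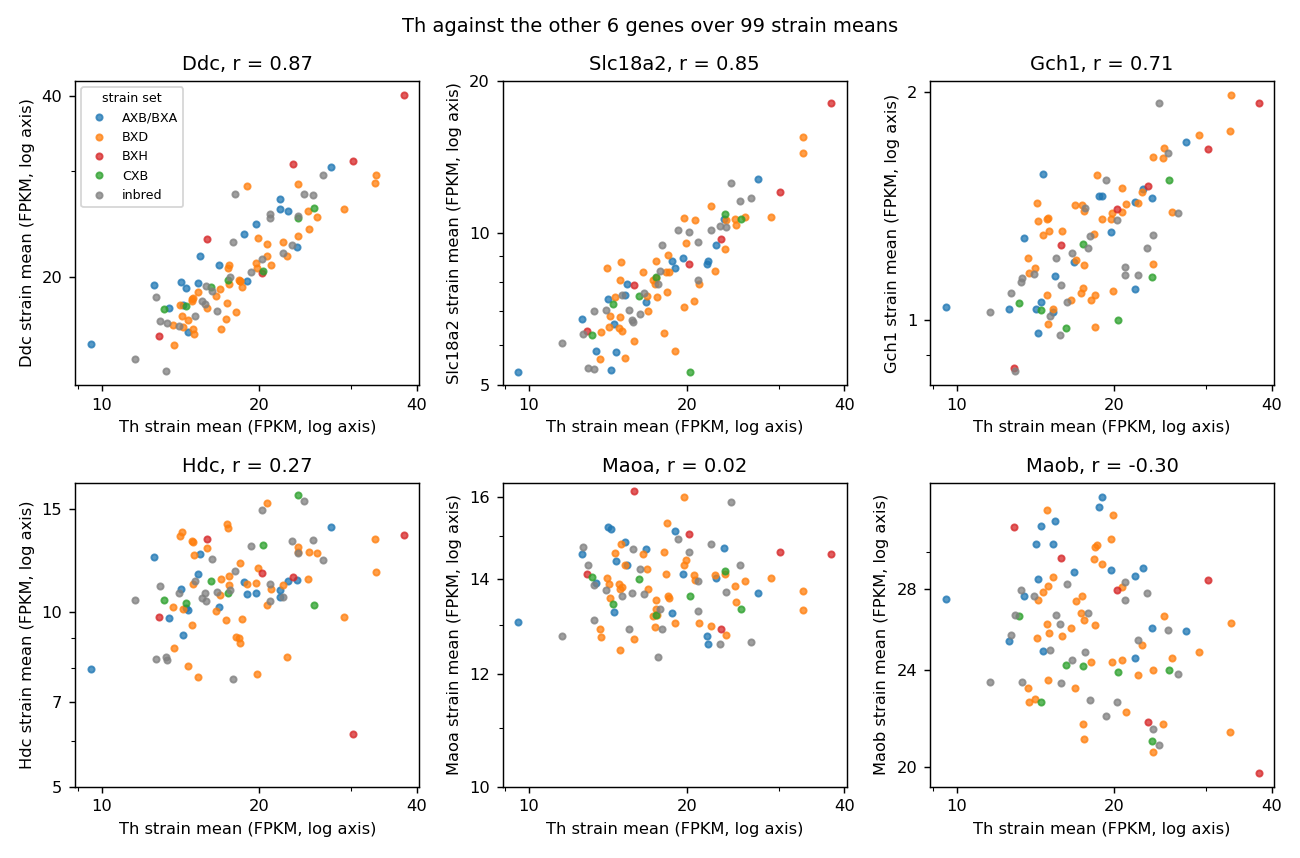
Strain means of 6 genes (vertical axes, FPKM on a log axis) against that of Th (horizontal axis, FPKM on a log axis) for 99 strains coloured by strain set, with Pearson's r of log2(FPKM + 1) above each panel. Ddc, Slc18a2 and Gch1 rise with Th (r = 0.87, 0.85 and 0.71), Maoa has r = 0.02 and Maob is lower where Th is high (r = -0.30).

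Hdc was only loosely tied to these 4 genes. Its r was 0.40 with Slc18a2 (adjusted permutation p = 0.00012), the transporter that histamine neurons share, 0.29 with Ddc (0.00861), 0.27 with Th (0.0108) and 0.21 with Gch1 (0.0557). With Th the sign was not the same in all sets, since r was -0.12 in the 6 BXH strains and 0.63 in the 25 inbred strains. Maoa had r between 0.00 and 0.09 with Hdc and the 4 dopamine genes, none of which passed. Maob had negative r with Th (-0.30), Slc18a2 (-0.30), Hdc (-0.28), Ddc (-0.24) and Gch1 (-0.22), all past the threshold by Pearson's r, but by Spearman's rho Maob with Ddc (adjusted p = 0.227) and with Gch1 (0.121) were not. With the 2 farthest strains left out, BXHB2 among those for Th, r of Th with Maob was -0.21. Maoa and Maob, neighbouring genes on the X chromosome, had r = 0.24 (adjusted p = 0.0239), which was -0.08 in the CXB set and -0.24 in the inbred strains.

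The genes most like each member over the strain means, among 11496 other genes with 1 name, set the members apart in the same way. For Th these were Ddc, Slc18a2, Slc6a3 (r = 0.85), Slc10a4 (0.81) and Gch1, where Slc6a3 is the plasma membrane dopamine transporter and Slc10a4 a protein of monoamine and cholinergic vesicles. For Slc18a2 and Ddc, Foxa1 took the place of Gch1, at 0.72 and 0.71, and this transcription factor is known from midbrain dopamine neurons. Gch1 had Drd2, the dopamine D2 receptor, as the fifth (0.57). For Hdc the 5 were Ebf3 (0.57), Otp (0.52), Bsx (0.52), Asb4 (0.51) and Nxph4 (0.51), of which Otp and Bsx are transcription factors of hypothalamic neurons. For Maob they were Syn2 (0.65), Nxph1 (0.65), Rtn4rl1 (0.63), Bhlhe40 (0.63) and Necab1 (0.63), and for Maoa Vma21 (0.54), Tmx3 (0.53), Rab18 (0.52), Trim23 (0.49) and Capn7 (0.49). The median absolute r of a member with any other gene lay between 0.08 and 0.12. These correlations rest on the same 99 strains and libraries and are given as a description.

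Since these 4 genes moved together, the bases just before their start sites are shown, read from RefSeq windows of 300 bases on GRCm38.p6, the coordinates of mm10. Windows were given for 6 of the 7 members, with Maob not among them. Capitals mark matches, on either strand, to the cyclic AMP response element TGACGTCA, to its shorter form TGACG, which lies within it, to the TATA box TATAAA, to the CCAAT box or to the GC box GGGCGG. Sequences run 5′ to 3′ along the gene's strand. The stretches of Th and Slc18a2 are cut to 30 bases around the element.
Th, chr7:142900021-142900050, minus strand: agaggggcttTGACGTCAgcctggccttta
Slc18a2, chr19:59260856-59260885, plus strand, crossing the start site: ccctctcagcgctgtccgTGACGTCAgagc
Gch1, chr14:47189414-47189533, minus strand: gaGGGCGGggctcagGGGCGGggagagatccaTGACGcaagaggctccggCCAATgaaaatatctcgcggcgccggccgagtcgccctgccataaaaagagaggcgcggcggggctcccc
Ddc, chr11:11890409-11890528, minus strand: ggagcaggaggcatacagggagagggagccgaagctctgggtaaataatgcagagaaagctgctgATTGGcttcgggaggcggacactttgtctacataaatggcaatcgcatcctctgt
The 8 letters TGACGTCA began 45 bases before the start site of Th and 4 bases before that of Slc18a2, and they occur in 1.79% of the 32851 windows of the table. Gch1 held TGACG, which 20.8% of all windows hold, 88 bases before its start, with CCAAT 70 bases before it. Ddc held CCAAT on the opposite strand 55 bases before its start, as 37.4% of windows hold CCAAT. The GC box, held by 35.7% of windows, was in those of Th, Slc18a2, Gch1, Hdc and Maoa, and Maoa held TGACG 209 bases before its start. A further Ddc window, 7736 bases farther upstream, held TATAAA on the opposite strand. So did the Gch1 window, 188 bases before its start and outside the bases shown, as 13.6% of windows hold TATAAA. A match is a run of letters and no evidence of binding.

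The members were also set against lists of markers of neighbouring tissue and of other cell types, each as log2 of the summed FPKM + 1. How many of all genes pass with these lists was not computed, so the count is a description and not a trait of the members. Over the strain means, 24 of 63 correlations between a member and a marker list passed at an adjusted permutation p under 0.05. Of these, 5 belong to a list not reported here, with which Th, Ddc, Slc18a2, Gch1 and Hdc had positive r. With the 4 listed genes of midbrain dopamine neurons (Slc6a3, Foxa1, Chrna6 and Aldh1a1), r was 0.58 for Th, 0.49 for Gch1, 0.49 for Slc18a2 and 0.47 for Ddc (adjusted p = 5.73e-05 for each), but -0.01 for Hdc, 0.02 for Maoa and 0.04 for Maob. For Th this r was 0.78 over deviations of mice within strains, between 0.70 and 0.88 in the 4 recombinant sets and 0.19 in the inbred strains. Aldh1a1, the most abundant of these at 31.1 FPKM, is also a breakdown enzyme, and had r = 0.29 with Th, against 0.69 for Chrna6, a nicotinic receptor subunit of dopamine neurons, and 0.69 for Foxa1. En1, En2, Foxa2 and Pitx3, further defining genes of that list, were not among the names of the table, nor were the mast cell, raphe serotonin and noradrenaline markers listed, so the part of these cells in the result was not tested. Slc6a3 ranged from 0.246 to 38.6 FPKM over mice, with a median of 5.07 FPKM, and its highest strain mean, 21.9 FPKM in BXHB2 (38.6, 19.1 and 7.87 FPKM), was that of the strain highest for Th. Its 4 highest strains, BXHB2, BXD-40/TyJ, BXD-34/TyJ and BXH-4/TyJ, were the 4 highest for Th.

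Thalamus genes went the other way. With the summed thalamus list (Tcf7l2, Prkcd, Tnnt1 and Ramp3), r was -0.52 for Hdc, -0.43 for Slc18a2, -0.35 for Th, -0.32 for Ddc and -0.31 for Gch1, while for Maob it was 0.48 (adjusted permutation p at most 0.00513 for each). The r of Maob with this list was 0.52 over deviations of mice within strains and between 0.40 and 0.76 within the 5 sets, and over the same deviations it was -0.40 for Hdc and between -0.12 and -0.21 for the 4 dopamine genes. BXHB2, highest for Th and lowest for Maob, had the lowest thalamus sum of all strains, 48.9 FPKM with 19.3 to 74.2 FPKM over its 3 mice, against a median strain of 203 FPKM. With choroid plexus genes r was -0.41 for Ddc, -0.36 for Slc18a2, -0.35 for Th and -0.27 for Gch1, and with the hypothalamus list it was positive for these 4 genes and Hdc, from 0.30 to 0.43. Over deviations of mice within strains the r of these 5 genes with the hypothalamus list lay between -0.09 and 0.16. That list includes Pomc, the precursor of melanocortins, which ranged from 1.45 to 6851 FPKM over mice, and its part in these r was not tested. Maoa passed with no list, and no other member passed with the astrocyte, endothelium or anterior pituitary lists or, by Pearson's r, with the list of histamine neurons (Prph and Hcrtr2), where Hdc had r = 0.22 (adjusted permutation p = 0.0676) and 0.63 over deviations within strains. By Spearman's rho, 0.27, Hdc did pass with this list (adjusted permutation p = 0.0221). How much of the strain differences of these genes goes with the share of neighbouring tissue in the dissected piece was not tested.

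**Figure D4:**
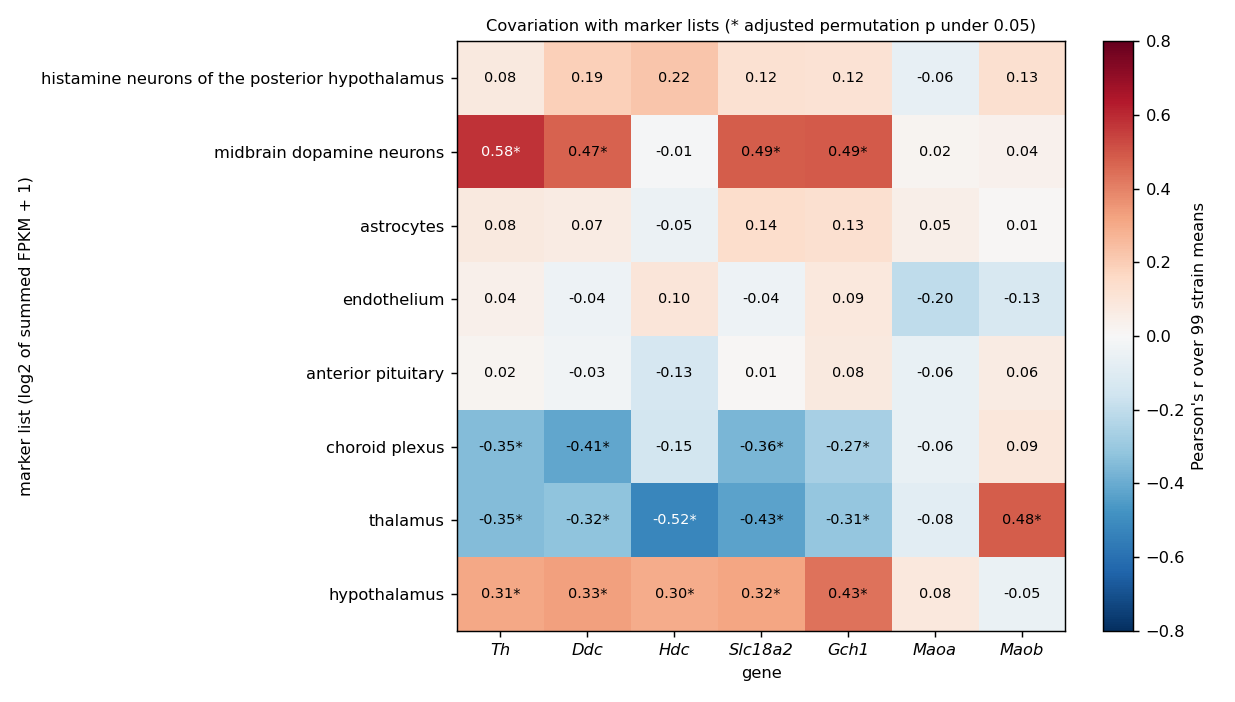
Pearson's r over 99 strain means between each gene (horizontal axis) and the summed FPKM of each marker list reported (vertical axis), with colour and number giving r and an asterisk an adjusted permutation p under 0.05. The 4 dopamine genes are positive with the midbrain list (0.47 to 0.58) and negative with the thalamus list, Maob is positive with the thalamus list (0.48), and Maoa has no asterisk.

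The 7 genes lie on 6 chromosomes in mm10. Th (XLOC_033913) is at chr7:142892752-142901357, Ddc (XLOC_005542) at chr11:11814103-11890408, Hdc (XLOC_021335) at chr2:126593547-126618700 and Gch1 (XLOC_011361) at chr14:47153895-47189413, all on the minus strand. Slc18a2 (XLOC_018197) is at chr19:59260706-59302023 on the plus strand. Maoa (XLOC_038466) and Maob (XLOC_039229, chrX:16709282-16817400, minus strand) lie tail to tail, 21254 bases apart. Since the libraries were unstranded, reads of Ddc cannot be told apart from those of the antisense gene 1700042O10Rik within it, nor those at the start of Slc18a2 from Gm29261, and Gch1 overlaps 2 processed pseudogenes.

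At the level of transcripts, 10 of the 23 differed between strains, and 6 did without the isoform-poor libraries. In the limma F test over 51024 transcripts 45.9% were called, and 25.7% without those libraries. For Ddc, Hdc, Th, Gch1 and Maob 1 known transcript carried most of the signal, from 71.7% of the mean gene FPKM for Gch1 to 91.2% for Maob. Known transcripts of Ddc (adjusted p = 0.00298), Hdc (0.00692) and Slc18a2 (5.44e-07) were called and remained so without those libraries (0.00435, 0.0224 and 1.15e-06). The main transcripts of Th (0.261), Maob (0.0664) and Gch1 (0.0679) were not called.

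The isoform-poor libraries stood apart in the transcripts of Maoa. Its locus, chrX:16619648-16688027 on the plus strand in mm10, held 1 known transcript with 15 exons, ending at 16687818, and 7 unannotated isoforms with 15 exons that end 209 bases farther on. In the 18 isoform-poor libraries the known transcript stood between 11.8 and 17.7 FPKM and the 7 isoforms summed to 0 or under 0.0001 FPKM. In the other 263 libraries the known transcript stood between 0.00911 and 6.90 FPKM and the isoforms summed to between 1.37 and 10.8 FPKM. The 7 isoforms were among the unannotated isoforms by which these libraries were set apart, so their sum near 0 partly restates that choice. How many other genes split the libraries in this way was not counted. The gene as a whole stood at 14.7 ± 1.54 FPKM (SD, n = 18) in the isoform-poor libraries and 13.8 ± 1.08 FPKM (n = 263) in the others. The adjusted p of the known transcript was 1.77e-17 with and 0.000639 without the 18 libraries, and the unannotated isoforms called with them, 2 of 7, were not called without them. A similar pattern was seen for Slc18a2, whose 2 unannotated isoforms run 6011 bases past the end of the known transcript, into the 3′ part of Pdzd8 on the opposite strand. Reads there cannot be told apart from those of Pdzd8. The sum of the 2 isoforms was at most 0.491 FPKM, with a median of 0, in the isoform-poor libraries. In the others it had a median of 1.47 FPKM, while the known transcript had medians of 6.56 and 3.81 FPKM. For Th, Hdc and Maob the median of the summed unannotated isoforms was not 0 in the isoform-poor libraries. In these and in the other libraries it was 2.42 and 2.19 FPKM for Th, 0.473 and 0.721 FPKM for Hdc, and 2.54 and 1.57 FPKM for Maob.

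**Figure D5:**
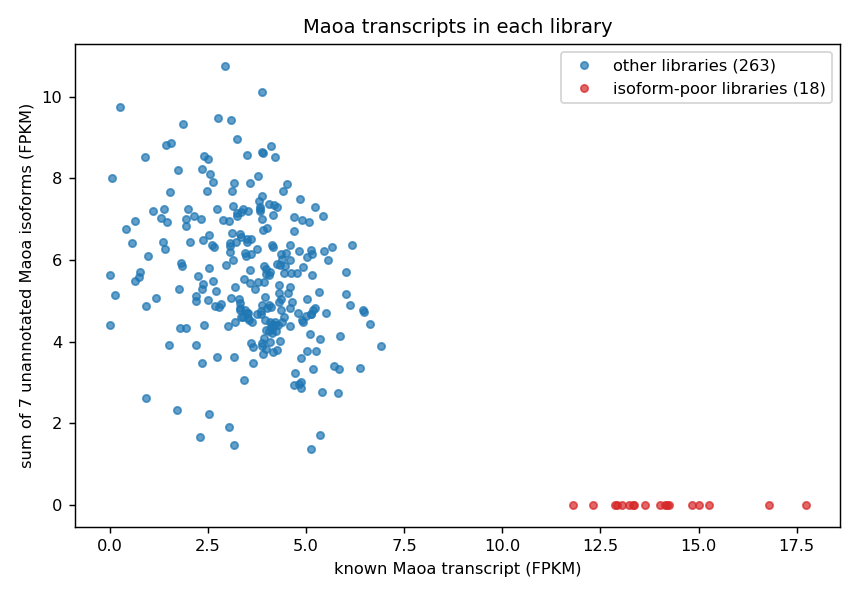
The known Maoa transcript (horizontal axis, FPKM) against the sum of 7 unannotated Maoa isoforms (vertical axis, FPKM), with 1 point per library and the isoform-poor libraries in red. The 18 isoform-poor libraries lie at 0 on the vertical axis and above 11 FPKM on the horizontal one, and the other 263 lie below 7 FPKM on it.

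Of 37 other genes of the aminergic pathway that were listed, 24 were in the table, and 20 of these (83.3%) differed between strains beside 74.9% of all genes, with a median strain share of 0.225 beside 0.221. Of the 9 listed genes of synthesis and cofactor supply 4 were in the table, and these 4 were called, from Qdpr, which recycles the cofactor of Th, at 148 ± 32.5 FPKM (SD over all mice), to Pts at 17.9 ± 2.83 FPKM. Slc29a4, a low-affinity monoamine transporter, was called, but Slc6a3 was not (adjusted p = 0.0552), although its highest strain mean was 30.4 times its lowest. All 6 breakdown genes were called. Aldh1a1, an aldehyde dehydrogenase, had a strain share of 0.558, above that of each of the 7 members, and Hnmt, which inactivates histamine by methylation, stood at 11.6 ± 1.47 FPKM (SD over all mice, adjusted p = 9.72e-05). Of 12 receptors 9 were called, and Htr2c (adjusted p = 0.129), Adra2a (0.438) and Adra2c (0.0652) were not. Drd2, at 8.73 ± 2.45 FPKM, had r = 0.63 with Th over the strain means. Without the isoform-poor libraries Slc29a4 and Slc6a3 were both called, beside 3 of the 4 genes of synthesis and cofactor supply, 5 of the 6 breakdown genes and 9 of the 12 receptors. Tph2, Dbh and Slc6a4, which mark serotonin and noradrenaline neurons, were not among the names of the table and were not analysed here.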

How the data were processed

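The study deposited 282 unstranded mRNA libraries from mouse hypothalamus. Per the methods and the submitters' processing notes, the authors used STAR 2.3.1 and mm10, then Cufflinks 2.2.0 to assemble each strain's transcripts beside known ones, and Cuffnorm 2.2.1 for the values. The deposited values are FPKM, scaled between mice by the authors, who also removed weakly detected features. With the near-identical pair merged, each gene was above 0 FPKM in at least 99 mice and above 1 FPKM in at least 49. The deposited assembly was used for names, exons and coordinates only. FPKM carry no counts, so the depth behind each value is unknown and no counting interval or floor was computed.

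Values were transformed as log2(FPKM + 1) and fitted by strain with limma 3.58.1 (R 4.3.3) in 280 mice of 99 strains. All genes entered a single fit without covariates, and p-values were adjusted by Benjamini-Hochberg within each comparison at 0.05. The planned fit held 1 mouse more, because the near-identical pair had not been known. Most strains had 3 mice (84), 13 had 2 and 2 had 1. The p-values set differences between strains against the spread between mice of a strain. Nothing in the labels says how mice of a strain were housed or dissected. Effects of housing or dissection that mice of a strain share cannot be told apart from strain. Correlations over strain means used permutation tests in Python 3.11.15 (numpy 2.4.6, pandas 2.3.3). The scripts were tested on simulated data.

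The members, the gene lists and the tests were chosen with earlier results of these data known. Named genes are the members, listed genes, and for each member the 5 genes with the highest r over strain means among genes with 1 name. Named strains are the founders and each member's 3 highest and 3 lowest, to which the other BXH strains and the isoform-poor strains were added after their values were seen. A listed gene and a marker list are not reported here. Alternatives were pseudocounts of 0.1 and 0.01, dropping genes below a mean of 1 FPKM, quantile normalization, covariates for mapped reads and their unique share, the Kruskal-Wallis test, fits of single sets or pairs of strains, other units for correlations, and leaving out replicates or the BXD-12/TyJ library with the largest sum. Leaving out the isoform-poor libraries and counting the near-identical pair as 2 were added after seeing the data.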

Additional observations from a re-analysis of the deposited data

How the results depend on the processing

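No paired analysis was possible because the labels give the mice no replicate numbers. The numbers 1 to 3 used here only name the mice of a strain in the order of their deposit. Of the 7 genes, between 4 and 6 were called when replicate 1, 2 or 3 was left out of every strain, against 6 with all mice. Over the same omissions their transcripts gave 2 to 7 calls against 10, the gene and set pairs 6 to 11 against 14 of 35, the founder contrasts 0 to 1 against 1, the other pathway genes 13 to 15 against 20, the pairs of members 8 to 15 against 15 of 21, the marker list pairs 17 to 22 against 24, all genes 6421 to 8641 against 10547 and all transcripts 12367 to 16851 against 23401. Fewer mice enter these fits. Without the isoform-poor libraries 6 of the members' transcripts and 13110 of all transcripts were called. The fit of 2 strains alone called 0 of 28 founder contrasts. Within sets the number of pairs of members called was 8 (AXB/BXA), 8 (BXD), 6 (BXH) and 1 (CXB), with fewer strains in each. Signs turned for 5 called correlations of members, Th with Hdc in the BXH set (-0.12), Hdc with Maob over deviations within strains (0.11), Slc18a2 with Maob in the AXB/BXA set (0.036), and Maoa with Maob in the CXB set (-0.0802) and the inbred strains (-0.24), and the cause was not tested. Of the other alternatives to single values, 1802 kept their side of the threshold, 139 lost it and 38 gained it. Pseudocounts, the filter, quantile normalization, covariates and the placement of the mouse with contradicting labels left the 6 called genes and Gch1 on their sides of the threshold. Counted as 2, the near-identical pair of libraries brought Gch1 to an adjusted p of 0.0481.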
